A study of Mus musculus with 137 samples.

Results

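The Pramel and Pramef genes of the mouse were followed through single 2-cell embryos in which the nuclear receptor NR5A2 was inhibited or its mRNA was supplied. The 8 genes, Pramel4, Pramel5, Pramel6, Pramel7, Pramef6, Pramef12, Pramef17 and Pramef25, were taken by symbol from a list of family members, out of 36176 genes summed from the deposited transcript counts. All 8 matched, had counts and passed the filter on low counts in both experiments. The embryos were of the B6129F1 strain and were isolated 5 hours after fertilization, before treatment. At the 2-cell stage they were profiled one by one with SmartSeq2, a full-length protocol primed on the poly(A) tail. One group was injected with mRNA of NR5A2 (500 ng/µl) and cultured with 10 µM SR1848, an NR5A2 inhibitor (27 embryos in experiment 1 and 40 in experiment 2). A second was cultured with 10 µM SR1848 alone (17 and 24 embryos), and the control with the solvent, 0.1% DMSO (19 and 10 embryos). Treatment began 6 hours after fertilization. No oil covered the cultures of any group. The labels give neither which embryos share parents nor an injected control, so the p-values measure the spread between embryos, and injection cannot be told apart from NR5A2 mRNA. In single whole embryos, a lower level can be less RNA per cell or fewer cells of the embryo that hold it, and these cannot be told apart.

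PRAME family proteins are built of leucine-rich repeats, and in mammals their genes form large clusters of similar copies that are expressed mainly in germ cells and early embryos. Human PRAME, a cancer-testis antigen, is a substrate receptor of ubiquitin ligases built on cullin 2 (CUL2), in which elongins B and C link the receptor to the cullin. In mouse embryonic stem cells, PRAMEL7 directs the CUL2 ligase to UHRF1, the protein that brings the maintenance methyltransferase DNMT1 to DNA, and PRAMEL6 is known from the same pathway. PRAMEF12 is known from spermatogonia of the mouse testis. NR5A2 binds as a monomer to DNA of the form NCAAGGNCA and takes part in activating the zygotic genome in mice.

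Pramel6 and Pramel7 are neighbours on chromosome 2, at chr2:87506565-87510872 on the plus strand and chr2:87489087-87497093 on the minus strand (GRCm38, GENCODE M21). The other 6 genes lie in one cluster on chromosome 4. Pramel4 is at chr4:144059126-144069327 on the plus strand. On the minus strand are Pramel5 at chr4:144270633-144280488, Pramef6 at chr4:143894237-143900380, Pramef12 at chr4:144391674-144408464, Pramef17 at chr4:143991119-143994369 and Pramef25 at chr4:143948580-143951016. All 8 are annotated as protein-coding, and current RefSeq names for Pramef6, Pramef12, Pramef17 and Pramef25 are Pramel11, Pramel13, Pramel14 and Pramel16. Near-identical copies limit what the counts can separate. Of all 31-base words in the annotated transcripts, 91.5% of those of Pramel4 also occurred in another gene (87.2% in Gm13102), as did 80.9% of those of Pramef17 (in Gm13128), 79.4% for Pramef25, 49.9% for Pramef6 and 41.1% for Pramel5. The share was 8.64% for Pramel7, 0.569% for Pramel6 and 0% for Pramef12. Levels of Pramel4, Pramel5, Pramef6, Pramef17 and Pramef25 are therefore uncertain in how reads were divided among copies. Each of these genes was also tested as a sum with its copies, with sums printed only for SR1848 against DMSO in experiment 1. Over the comparisons of both experiments, 6 values gained a call when summed and 0 lost one. The sum of Pramel5 holds the same genes as that of Pramel4, so it does not test Pramel5 apart.

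The 250 bases before the RefSeq start were read for the motif that NR5A2 binds. NCAAGGNCA was searched on both strands, together with its shorter forms AAGGTCA and AAGGCCA, which overlap it. Pramel4 and Pramel5 each held 1 match to NCAAGGNCA on the strand of the gene, with the same letters, from 101 to 93 bases before the start in Pramel4 and from 116 to 108 bases before it in Pramel5. None of the 3 motifs was found in this window of the other 6 genes. Of 32851 RefSeq promoter windows of the same length, 5.51% held NCAAGGNCA, 4.08% AAGGTCA and 5.24% AAGGCCA. The windows below are RefSeq sequences of GRCm38.p6, written 5′ to 3′ on the strand of the gene, with the motif in capitals. They are shown because Pramel4 and Pramel5 carry the motif, while Pramel7, which had the largest fall of the members in experiment 1, does not. They cover chr4:144058875-144059124 (plus strand), chr4:144280467-144280716 (minus strand) and chr2:87492419-87492668 (minus strand). The window of Pramel7 lies before a RefSeq start that is inside the GENCODE gene.
Pramel4: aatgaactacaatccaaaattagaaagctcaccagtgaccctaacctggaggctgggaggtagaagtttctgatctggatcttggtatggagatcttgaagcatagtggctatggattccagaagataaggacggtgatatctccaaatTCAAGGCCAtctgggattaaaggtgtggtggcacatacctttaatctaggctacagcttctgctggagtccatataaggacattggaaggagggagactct
Pramel5: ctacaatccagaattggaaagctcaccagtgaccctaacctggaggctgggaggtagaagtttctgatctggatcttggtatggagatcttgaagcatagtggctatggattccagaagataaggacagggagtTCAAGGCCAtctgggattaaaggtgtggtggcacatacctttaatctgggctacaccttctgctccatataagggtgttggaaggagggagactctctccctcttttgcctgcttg
Pramel7: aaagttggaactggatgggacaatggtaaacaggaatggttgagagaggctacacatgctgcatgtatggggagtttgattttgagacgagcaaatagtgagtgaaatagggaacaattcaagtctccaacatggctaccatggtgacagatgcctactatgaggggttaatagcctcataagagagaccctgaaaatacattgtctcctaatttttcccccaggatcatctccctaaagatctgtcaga
The windows of Pramel4 and Pramel5 were identical at 220 of 250 positions (88%) in a global pairwise alignment, and those of Pramel7 and Pramef17 at 204 (81.6%). The other pairs reached 49.6% to 64%. Pramel7 and Pramef17 thus share most of this window although they lie on different chromosomes.

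Totals had a median of 4635044 counts (100502 to 9264092). A library was called low where its counts summed to less than the median over 5 or its detected genes to less than the median over 2, which held for 7. They were NR5A2 mRNA 22, SR1848 8 and DMSO 6, 13 and 16 in experiment 1, and NR5A2 mRNA 27 and 40 in experiment 2. They were kept, and ranges include them unless stated otherwise. Some calls and ranges are also given without them. In experiment 2, 16 libraries went against their labels. Libraries 1 to 8 labelled SR1848 with NR5A2 mRNA held 82 to 156 CPM (counts relative to a library total of 1e6) of Nr5a2 and GFP up to 0.455 CPM. Libraries 1 to 8 labelled DMSO held 88.8 to 5468 CPM of Nr5a2 and 47.7 to 7171 CPM of GFP. Their groups are named as labelled, and experiment 2 is given with and without them. In experiment 1, 9 of the 27 libraries labelled SR1848 with NR5A2 mRNA held 5.4 to 54.8 CPM of Nr5a2 and at most 32.9 CPM of GFP, against 2075 CPM or more of Nr5a2 in the other 18 and 6.34 to 50.5 CPM in SR1848 embryos. These 9, under 100 CPM of GFP, are called embryos with little GFP, and comparisons of the injected group are given with and without them. In experiment 1, all 17 libraries labelled SR1848 held less Nr5a2 than any DMSO library that was not low. Oocyte transcripts (6 checked) were all detected in the 130 libraries that were not low, and all 6 checked 2-cell transcripts in 74 of them. Of 12 markers of cumulus and granulosa cells 7 had a median of 0 over all embryos, and leaving aside Amhr2 their summed share of counts reached, outside the low libraries, 0.00319% with NR5A2 mRNA, 0.00652% with SR1848 and 0.00196% with DMSO in experiment 1. Low libraries SR1848 8 and DMSO 6 reached 0.0498% and 0.0219%. In experiment 2, outside the low libraries, this share reached 0.00339% with NR5A2 mRNA, 0.0207% with SR1848 and 0.00209% with DMSO. The highest was SR1848 library 18, which also held the highest Pramel5 (22.6 CPM), Pramel6 (26 CPM) and Pramef25 (88 CPM) of its group.

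SR1848 against DMSO in experiment 1 asks how the family differs when NR5A2 is inhibited. Pramel4, Pramel5, Pramel6, Pramel7, Pramef17 and Pramef25 fell, Pramef12 rose, and Pramef6 did not pass the test. The 8 genes together made up a median of 98.5 CPM (13 to 166) in SR1848 embryos, against 1041 CPM (0 to 1505) in DMSO embryos. Without the low libraries the ranges of this sum were 59 to 166 CPM and 746 to 1505 CPM. In edgeR's quasi-likelihood test, adjusted by Benjamini-Hochberg over 13634 genes and read at 0.05, 6 of 8 members were lower, where 31.7% of all genes tested were lower, and 1 of 8 was higher, where 36.3% were. With 68.0% of all genes called, a call by itself does not set a member apart. The median log2 fold change was 0.20 over all genes tested and -3.79 over the members. Scaled to 60 maternal transcripts in place of the usual TMM normalization, the 4950 higher and 4325 lower of all genes became 698 higher and 9027 lower.

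**Figure D1:**
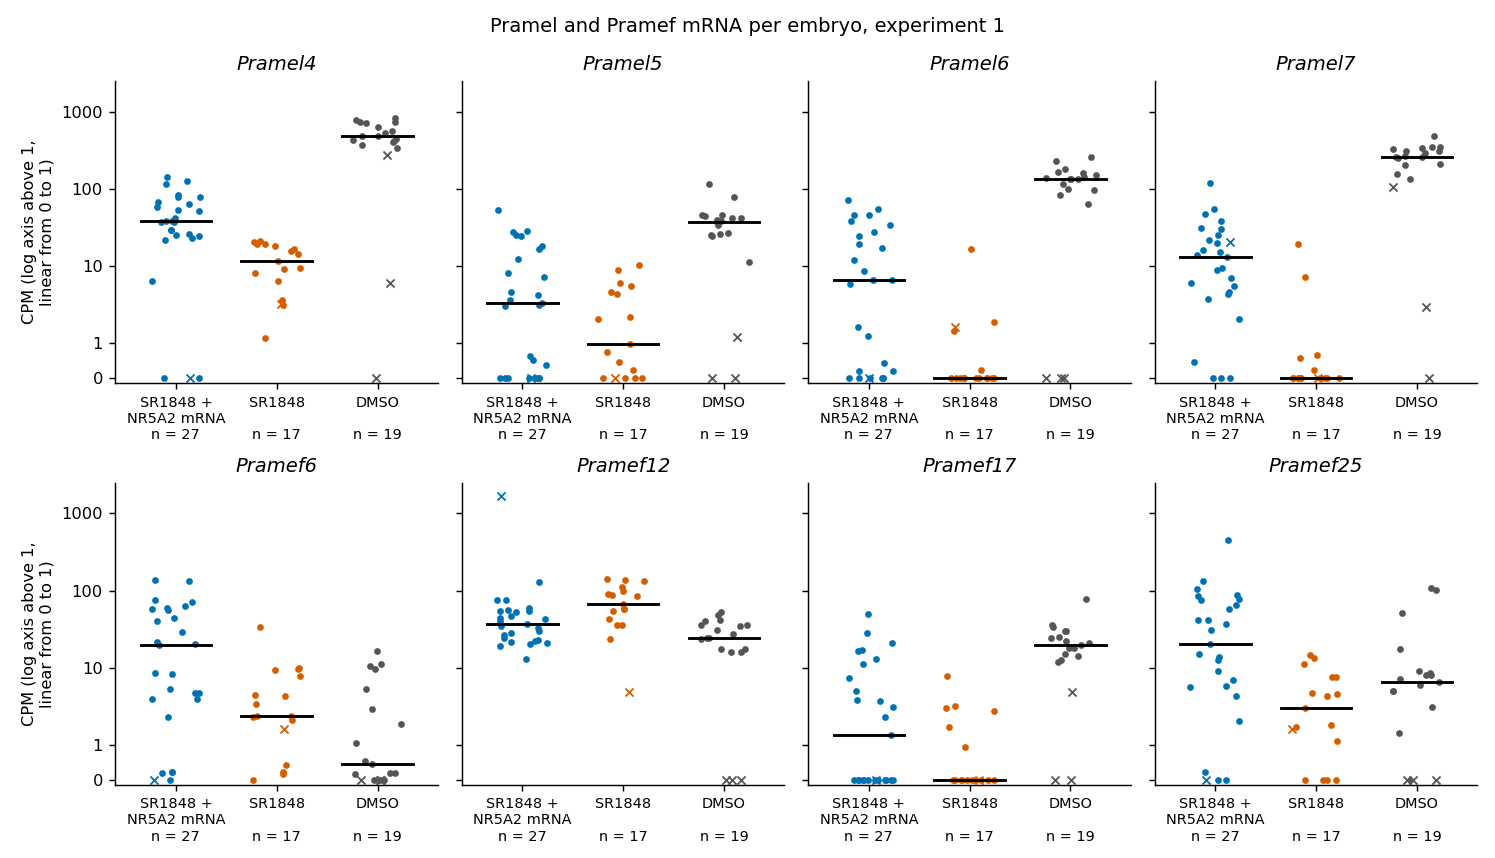
Levels of the 8 genes in experiment 1, in CPM on an axis that is logarithmic above 1 and linear from 0 to 1. Each point is an embryo, crosses are the low libraries and bars are medians. Pramel4, Pramel6 and Pramel7 lie near 0 to 21.1 CPM with SR1848 and at 64.9 CPM or more in DMSO embryos that are not low, while Pramef12 has its highest median, 66.3 CPM, with SR1848.

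Pramel7, the UHRF1-directing receptor, was at 0 in 12 of 17 SR1848 embryos and reached at most 19.3 CPM there, against a median of 262 CPM in DMSO embryos (0 to 489, n = 19). Outside the low libraries the lowest DMSO embryo held 136 CPM, so the groups did not overlap. Its fitted log2 fold change was -7.02 (SE 0.90, adjusted p = 9.55e-10 by edgeR). Its chromosomal neighbour Pramel6 was also at 0 in 12 of 17 SR1848 embryos, with a highest value of 16.5 CPM, against a median of 136 CPM in DMSO embryos (0 to 256). It fell by 6.41 on the log2 scale (SE 1.01, adjusted p = 1.33e-07 by edgeR), and the groups did not overlap without the low libraries. The share of all genes tested that had no overlap was not counted in this experiment. A lack of overlap here therefore does not by itself set a member apart.

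Pramel4 had a median of 11.7 CPM in SR1848 embryos (1.19 to 21.1), against 480.1 CPM in DMSO embryos (0 to 836). No SR1848 embryo reached 343 CPM, the lowest DMSO value outside the low libraries. The fitted log2 fold change was -5.18 (SE 0.56, adjusted p = 1.38e-11 by edgeR). Summed with Gm13102 and Pramel5, with which it shares sequence, the change was -5.11 (SE 0.53). Pramel5 had a median of 0.982 CPM in SR1848 embryos (0 to 10.5), against 36.9 CPM in DMSO embryos (0 to 116), and a change of -3.54 (SE 0.77, adjusted p = 6.06e-05 by edgeR). Its groups too were apart without the low libraries, though narrowly, at 10.5 CPM at most with SR1848 and 11.3 CPM at least with DMSO.

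Pramef17 was at 0 in 11 of 17 SR1848 embryos and at most 7.96 CPM there, against a median of 19.9 CPM in DMSO embryos (0 to 77). Its change was -4.05 (SE 0.90, adjusted p = 8.26e-05 by edgeR), and -5.37 (SE 0.95) when summed with Gm13128. Its lowest DMSO value was 12.1 CPM without the low libraries, and the groups then did not overlap. Pramef25 had a median of 3.04 CPM in SR1848 embryos (0 to 14.5), against 6.6 CPM in DMSO embryos (0 to 108), with overlapping groups and a change of -1.83 (SE 0.74, adjusted p = 0.0254 by edgeR). This call was lost when experiment 2 was added without its 16 libraries (-0.57, adjusted p = 0.486 by edgeR), and kept when the gene was summed with its 7 copies (-2.52, SE 0.67). Pramef6 had medians of 2.39 CPM with SR1848 (0 to 34.1) and 0.457 CPM with DMSO (0 to 16.7) and a change of 0.91 (SE 0.71, adjusted p = 0.253 by edgeR). Summed with Gm13083 and Gm13078 it was called higher (1.61, SE 0.55, adjusted p = 0.00843).

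Pramef12 went the other way. Its median was 66.3 CPM in SR1848 embryos (4.88 to 141) and 24.3 CPM in DMSO embryos (0 to 53.4), and 12 of 17 SR1848 embryos were above the highest DMSO embryo. Without the low libraries its ranges were 23.4 to 141 CPM and 16.2 to 53.4 CPM. The log2 fold change with all libraries was 1.67 (SE 0.48, adjusted p = 0.00166 by edgeR), but it was -0.78 (adjusted p = 0.219) when libraries were scaled to maternal transcripts. With the low libraries also left out, that scaling gave -0.88 (SE 0.28, adjusted p = 0.00311 by edgeR), so Pramef12 was then called lower. Those maternal transcripts made up a median of 4.48% of counts with SR1848 and 1.07% with DMSO, and 50 of the 59 tested were called higher and 2 lower. Their part in the result was not tested. With all libraries, maternal scaling moved the median of all genes to -2.06. Relative to the median of all genes Pramef12 was at 1.28 with this scaling and 1.47 without it. The rise of Pramef12 is thus a rise in its share of counts. Scaled to maternal transcripts, Pramef6 likewise stood at -1.08 and at 0.97 relative to the median, and the 6 genes that fell passed the test there too, between -3.87 and -9.14.

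NR5A2 mRNA with SR1848 against SR1848 alone asks how embryos labelled as injected differ from inhibited ones. In experiment 1, with all libraries, Pramel4, Pramel6, Pramel7, Pramef6, Pramef17 and Pramef25 were higher in the injected group. That is 6 of 8 members, where 13.4% of all genes tested were higher, and no member was lower by edgeR, by DESeq2 or at an unadjusted p under 0.05 (0 of 8 each), where 5.09% of all genes were (18.5% in either direction). Scaled to maternal transcripts, the 1826 higher and 694 lower of all genes became 4052 higher and 409 lower, and 8 of 8 members were higher. The median log2 fold change over the members was 2.52, beside 0.03 over all genes tested. Without the 9 embryos with little GFP, 5 of 8 members were higher, where 8.38% of 13155 genes were (12.7% in either direction, 4.31% lower), and the median over the members was 1.94. Pramel4 (1.44, SE 0.46), Pramel6 (3.31, SE 0.89), Pramel7 (2.78, SE 0.74), Pramef6 (2.43, SE 0.77) and Pramef25 (2.46, SE 0.75) then had adjusted p-values by edgeR between 0.0065 and 0.026. The call of Pramef17 was lost (0.82, SE 0.78, adjusted p = 0.593 by edgeR). No member was lower by edgeR or at an unadjusted p under 0.05 (0 of 8 each). This fit keeps low library 22, and Pramef12 was at -0.11 (SE 0.48) in it. Outside the low libraries, Pramef12 had a median of 28.6 CPM in the 17 injected embryos with more GFP and 75.7 CPM in SR1848 embryos. Outside the low libraries the summed level was 34 to 989 CPM with NR5A2 mRNA (median 180.0), against 59 to 166 CPM with SR1848 alone (median 99.6). Its median was 117 CPM in the 17 of these injected embryos with more GFP and 343 CPM in the 9 with little, and 6 of the 17 and 8 of the 9 were above the highest SR1848 embryo. The highest values of Pramel4, Pramel5, Pramel7, Pramef17 and Pramef25 in this group all came from library 21, which is among the 9.

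Pramel7 had a median of 13.2 CPM with NR5A2 mRNA (0 to 120.0), against 0 CPM with SR1848 alone, and was above the highest SR1848 embryo in 10 of 27 injected embryos. Its log2 fold change was 3.45 (SE 0.74, adjusted p = 4.44e-04 by edgeR). Pramel6 had a median of 6.65 CPM with NR5A2 mRNA (0 to 71.2), against 0 CPM, and rose by 3.59 (SE 0.87, adjusted p = 0.00166 by edgeR), although 7 of 27 injected embryos were still at 0. For Pramel4 the medians were 38.7 CPM with NR5A2 mRNA (0 to 141) and 11.7 CPM without it, a change of 1.96 (SE 0.46, adjusted p = 0.00123 by edgeR), and 23 of 27 injected embryos exceeded the highest SR1848 embryo. So in experiment 1 Pramel4 lay above the SR1848 range in most injected embryos, while Pramel6 and Pramel7 did so in some and were at or near 0 in others. In experiment 2 without the 16 libraries, Pramel4, Pramel6 and Pramel7 lay above the SR1848 range in 15, 7 and 6 of 32 injected embryos. All these counts include the low libraries and the embryos with little GFP. Leaving out the low libraries, embryos with more GFP had Pramel7 medians of 7.09 CPM in experiment 1 (0 to 47.4, n = 17) and 5.45 CPM in experiment 2 (0 to 48.9, n = 25). Those with little GFP had medians of 25.2 CPM (0 to 120.0, n = 9) and 36.3 CPM (17.7 to 85.9, n = 5).

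Pramef25 had a median of 20.5 CPM with NR5A2 mRNA (0 to 132, and 456 in library 21), against 3.04 CPM with SR1848 alone, a change of 3.41 (SE 0.77, adjusted p = 7.73e-04 by edgeR). Pramef6 had medians of 20 CPM (0 to 136) and 2.39 CPM and a change of 2.48 (SE 0.72, adjusted p = 0.0096 by edgeR). Pramef17 was at 0 in 13 of 27 injected embryos, among them 11 of the 17 with more GFP that were not low, and reached 49.7 CPM, against at most 7.96 CPM with SR1848 alone, and changed by 2.56 (SE 0.82, adjusted p = 0.0198 by edgeR). Pramel5 did not pass, with medians of 3.35 CPM (0 to 53.1) and 0.982 CPM and a change of 1.64 (SE 0.69, adjusted p = 0.0864 by edgeR).

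The value of Pramef12 rested on the low libraries. Its fitted change was 0.05 (SE 0.44, adjusted p = 0.96 by edgeR) with all libraries and -0.90 (SE 0.22, adjusted p = 0.00118) without the low ones. Low library 22 held 1667 CPM, from 239 counts in a total of 143368, while the other 26 injected embryos lay between 12.9 and 128 CPM. Their median of 36.2 CPM was below 75.7 CPM in SR1848 embryos that were not low.

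Against DMSO, embryos with SR1848 and NR5A2 mRNA in experiment 1 were still lower in Pramel4 (-3.22, SE 0.42), Pramel5 (-1.90, SE 0.61), Pramel6 (-2.82, SE 0.70) and Pramel7 (-3.58, SE 0.63), with adjusted p-values by edgeR between 2.32e-09 and 0.00529. Those 4 of 8 stand beside 29.7% of all genes lower, and 3 of 8 higher beside 37.2% higher (66.9% in either direction). Scaled to maternal transcripts, 1008 of all genes were higher and 7927 lower, in place of 5068 and 4048, and 1 member was higher and 5 lower. No injected embryo reached the DMSO median of Pramel4, Pramel6 or Pramel7. The genes above DMSO were Pramef6 (3.39, SE 0.73, adjusted p = 4.89e-05), Pramef12 (1.71, SE 0.45, adjusted p = 6.52e-04) and Pramef25 (1.57, SE 0.67, adjusted p = 0.033). Pramef12 was at 0.64 (SE 0.23, adjusted p = 0.011) without the low libraries. With these left out and libraries scaled to maternal transcripts, it was called lower (-1.17, SE 0.24, adjusted p = 1.96e-05 by edgeR). Pramef25 was not called without the low libraries (1.43, adjusted p = 0.0523). Pramef17, at -1.49 (SE 0.69, adjusted p = 0.0509), missed the threshold with all libraries and passed it without the low ones (-1.64, adjusted p = 0.0321). Without the embryos with little GFP, 5 members were lower (31.2% of all genes were) and 2 higher (35.4%, 66.6% in either direction). Pramef17 was then lower (-3.25, SE 0.80, adjusted p = 3.67e-04) and Pramef25 was not called (0.60, SE 0.68, adjusted p = 0.443). The 2 higher were Pramef6 and Pramef12, in a fit that keeps low library 22. Outside the low libraries, Pramef12 had a median of 28.6 CPM in the 17 injected embryos with more GFP and 29.1 CPM in DMSO embryos. The 3 comparisons of experiment 1 share their libraries, so their values are set side by side and are not independent.

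**Figure D2:**
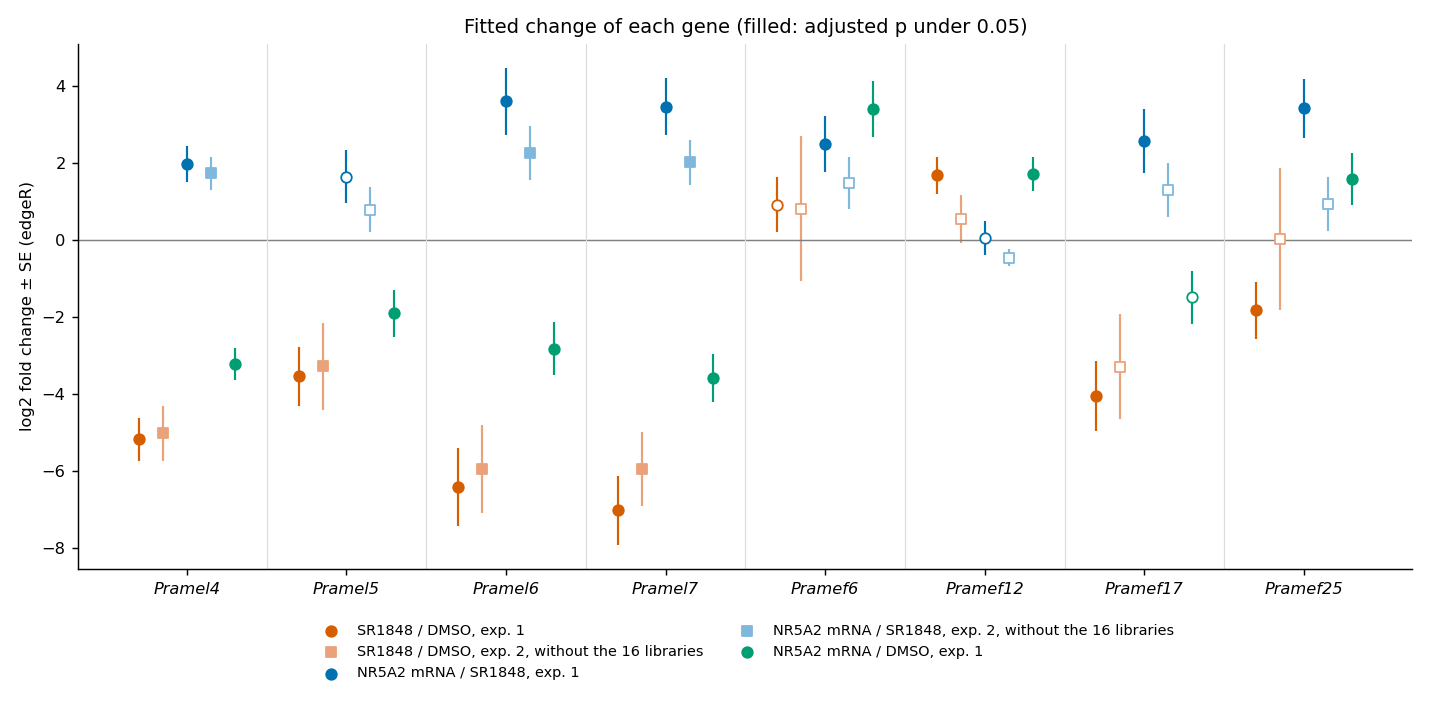
Fitted log2 fold change of each gene with its standard error, by comparison, with filled symbols where the edgeR adjusted p was under 0.05. Circles are experiment 1 and squares experiment 2 without the 16 libraries. With SR1848 Pramel4, Pramel5, Pramel6 and Pramel7 stand between -3.28 and -7.02 in both experiments, and with NR5A2 mRNA over SR1848 the other 7 genes beside Pramef12 stand above 0 in both, except that without embryos with little GFP Pramel5 and Pramef25 are at -0.30 and -0.97 in experiment 2.

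The order of the genes was read on the TPM scale (counts per length of the annotated transcripts, set to the same total in each library). In DMSO embryos of experiment 1 the medians were 339 TPM for Pramel4, 318 for Pramel7, 194 for Pramel6, 37.9 for Pramel5, 19.1 for Pramef17, 17.9 for Pramef12, 6.42 for Pramef25 and 0.596 for Pramef6. Pramel4 exceeded Pramel7 in only 9 of 19 embryos and Pramef17 exceeded Pramef12 in 10 of 19, so these neighbours were not ordered within embryos. Pramel7 exceeded Pramel6, and Pramel6 exceeded Pramel5, in 16 of 19. In SR1848 embryos the order was another one, with Pramef12 highest at 61.6 TPM, above Pramel4 at 10.7 TPM in 17 of 17 embryos, and with Pramel6, Pramel7 and Pramef17 at a median of 0. With NR5A2 mRNA the medians ran in order: 31.1 TPM for Pramel4, 26 for Pramef12, 20 for Pramef25, 19.3 for Pramef6, 13.7 for Pramel7, 9.56 for Pramel5, 9.44 for Pramel6 and 1.37 for Pramef17. Neighbours in this order were not separated within embryos: Pramel4 exceeded Pramef12 in 15 of 27, Pramef6 exceeded Pramel7 in 14, and Pramel5 exceeded Pramel6 in only 7.

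**Figure D3:**
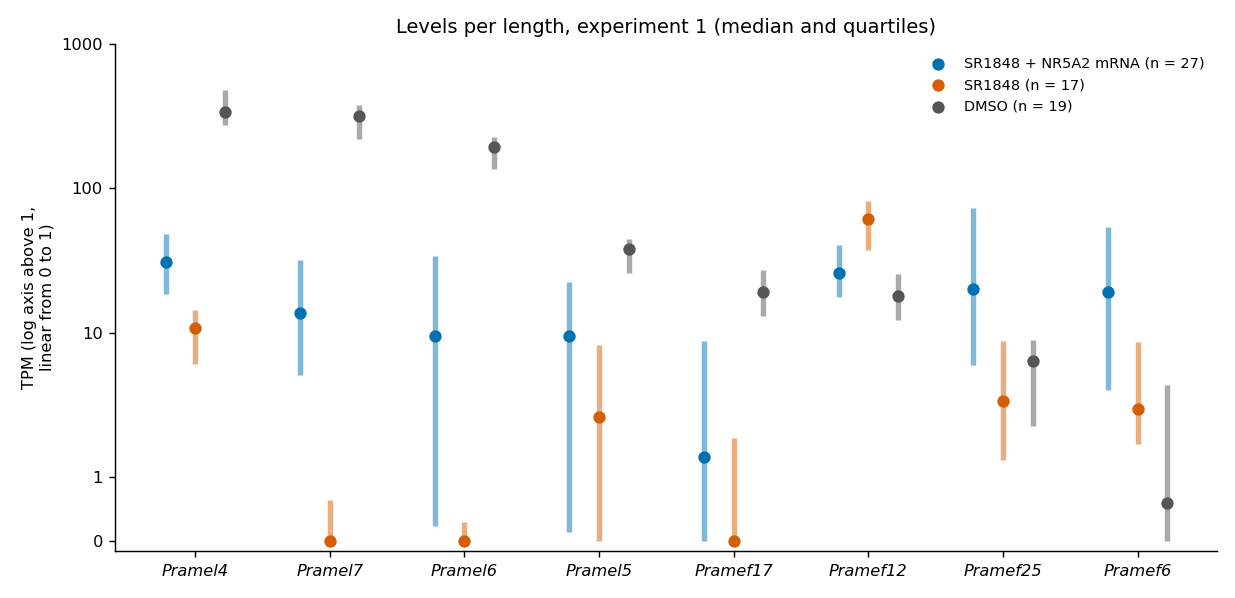
Levels per transcript length in experiment 1, in TPM on an axis that is logarithmic above 1 and linear from 0 to 1, with points for medians and lines for quartiles over embryos. The DMSO medians span 0.596 to 339 TPM, the 3 leading genes are near 0 to 10.7 TPM with SR1848, and the medians with NR5A2 mRNA lie between 1.37 and 31.1 TPM.

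Experiment 2 was fitted apart over 15292 genes. As labelled, SR1848 against DMSO gave 4 of 8 members lower, namely Pramel4 (-3.31, SE 0.65, adjusted p = 1.06e-04 by edgeR), Pramel6 (-3.99, SE 0.93), Pramel7 (-3.95, SE 0.88) and Pramef17 (-2.38, SE 0.91), where 19.8% of all genes were lower (24.3% in either direction). None of the 8 was higher by edgeR (4.51% of all genes were). Scaled to maternal transcripts all 8 were lower, as were 11342 of all genes. The 1 member at an unadjusted p under 0.05 on the higher side, Pramef12 (0.80), had an unadjusted p of 0.0242 by edgeR and an adjusted p of 0.0411 by DESeq2. Without the 16 libraries, DMSO kept 2 embryos. Then 4 of 8 members were lower, where 19.0% of 18699 genes were (31.4% in either direction, 12.4% higher), namely Pramel4 (-5.02, SE 0.72), Pramel5 (-3.28, SE 1.13), Pramel6 (-5.94, SE 1.14) and Pramel7 (-5.94, SE 0.96). Pramef17 (-3.29, SE 1.36, adjusted p = 0.0574 by edgeR), Pramef6 (0.81, SE 1.88), Pramef12 (0.54, SE 0.63) and Pramef25 (0.02, SE 1.84) did not pass. Pramel7 had a median of 1.6 CPM in the 24 SR1848 embryos (0 to 27.2), against 263 and 255 CPM in the remaining DMSO embryos 9 and 10. Pramel4 had a median of 14.4 CPM (0 to 46.2), against 554 and 561 CPM, and Pramel6 a median of 0 CPM (0 to 26), against 216 and 148 CPM. All 24 SR1848 embryos were below both DMSO embryos for these 3 genes and for Pramef17, as they were for 19.5% of the 18699 genes.

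NR5A2 mRNA against SR1848 in experiment 2, as labelled, gave Pramel4 (3.19, SE 0.55), Pramel6 (3.89, SE 0.81), Pramel7 (4.09, SE 0.78) and Pramef17 (2.10, SE 0.73) higher, 4 of 8 where 29.2% of all genes were (40.5% in either direction). Pramef12 was lower (-0.61, SE 0.23, adjusted p = 0.0248 by edgeR), where 11.3% of all genes were, but stood at 0.63 (adjusted p = 0.00795) when scaled to maternal transcripts, with the median of all genes then at 1.72 and 12969 of all genes and all 8 members higher. Without the 16 libraries 3 of 8 members were higher, where 22.3% of all genes were (8.58% lower and 30.8% in either direction), namely Pramel4 (1.72, SE 0.42, adjusted p = 9.54e-04), Pramel6 (2.26, SE 0.70, adjusted p = 0.01) and Pramel7 (2.01, SE 0.58, adjusted p = 0.00541). Pramef6 (1.47, SE 0.67), Pramef17 (1.29, SE 0.71), Pramef25 (0.93, SE 0.69), Pramel5 (0.78, SE 0.58) and Pramef12 (-0.46, SE 0.22) did not pass. Without the 7 further embryos with little GFP, 2 of them low, 3 of 8 were higher (22.6% of all genes were) and 1 lower (13.1%, 35.7% in either direction). Pramel4 (1.22, SE 0.38, adjusted p = 0.00844 by edgeR), Pramel6 (1.83, SE 0.72, adjusted p = 0.0426) and Pramel7 (1.39, SE 0.57, adjusted p = 0.0482) stayed higher, Pramef12 was lower (-0.46, SE 0.18, adjusted p = 0.0398), and Pramel5 (-0.30, SE 0.56) and Pramef25 (-0.97, SE 0.64) were not called. In the 32 injected embryos left without the 16 libraries Pramel4 had a median of 36.2 CPM (0 to 222), Pramel7 of 7.03 CPM (0 to 85.9) and Pramel6 of 7.73 CPM (0 to 51.4). The effect of NR5A2 mRNA was compared between experiments by an interaction term over 20747 genes without the 16 libraries. None of the 8 members passed by edgeR (7.78% of all genes did, 6.04% higher and 1.74% lower in experiment 2). Without the low libraries the 1254 higher and 360 lower of all genes became 257 and 384 of 19909, and again no member passed. Pramef25 had an unadjusted p of 0.0125, the 1 member under 0.05, with a difference of -2.57 (SE 1.02, experiment 2 minus experiment 1, adjusted p = 0.112).

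The 16 libraries held family levels like those of the other label. The summed level had a median of 1178 CPM in the 8 labelled as injected (834 to 1579), and of 85.3 CPM in the 8 labelled DMSO (67.6 to 604), against 1125 and 1139 CPM in DMSO 9 and 10. For Pramel4 the ranges were 396 to 828 CPM and 21 to 192 CPM, and for Pramel7 168 to 401 CPM and 0 to 74.6 CPM. Pramel4, Pramel5, Pramel6 and Pramel7 of these 2 sets did not overlap, Pramel5 at 22.5 to 59.9 CPM and 0 to 17 CPM. The share of all genes without overlap between these sets was not counted, so this does not by itself set a member apart. Nr5a2 did not depart from the label in each of them, at 88.8 CPM in library 4 labelled DMSO against 84.2 and 105 CPM in DMSO 9 and 10.

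**Figure D4:**
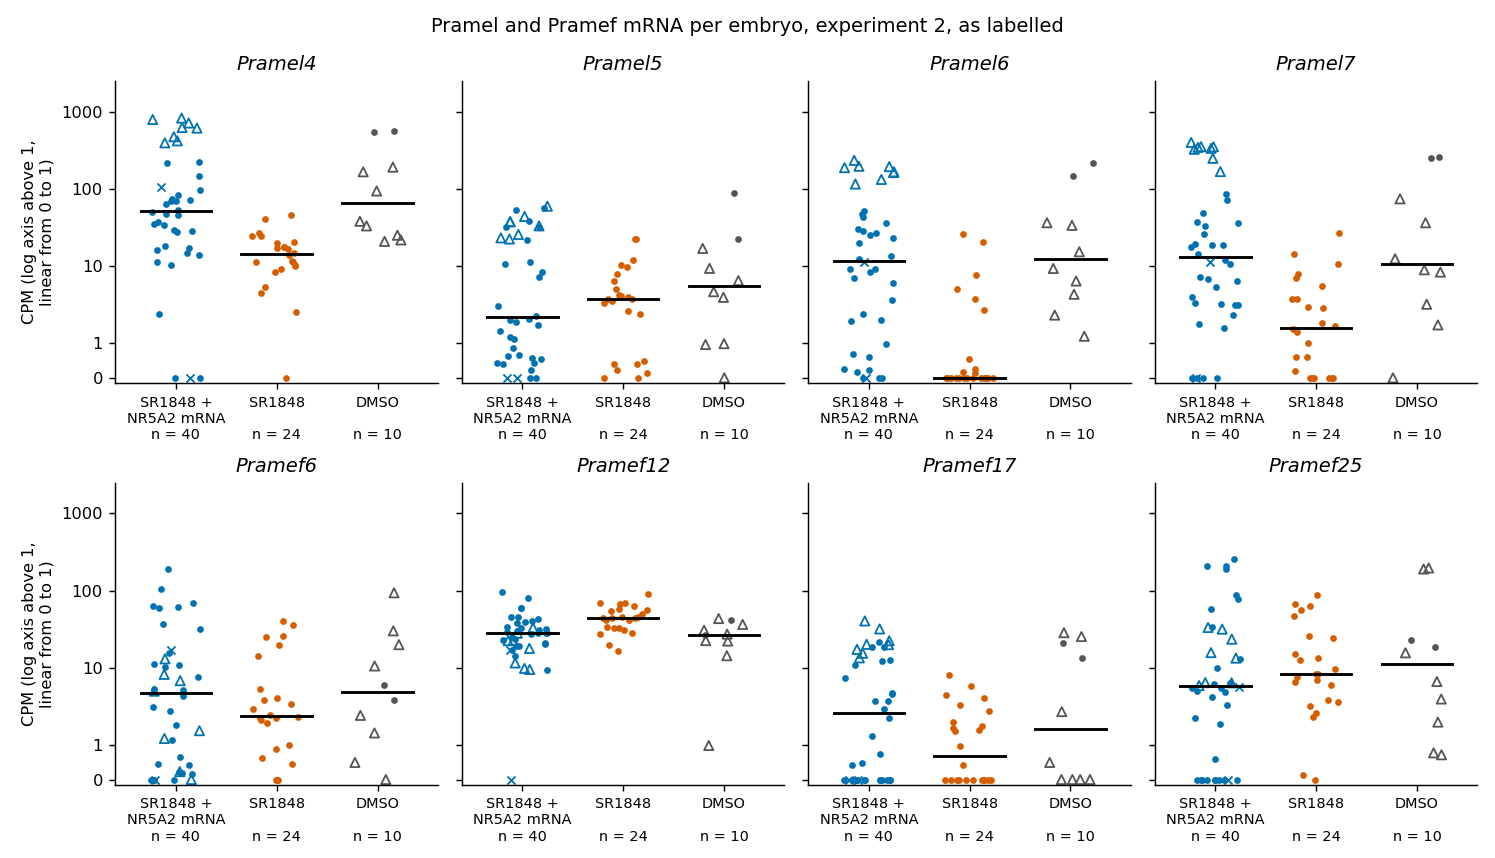
Levels of the 8 genes in experiment 2 as labelled, in CPM on an axis that is logarithmic above 1 and linear from 0 to 1. Each point is an embryo, open triangles are the 16 libraries that go against their labels, crosses are low libraries and bars are medians. The triangles labelled SR1848 with NR5A2 mRNA hold 396 to 828 CPM of Pramel4, and the triangles labelled DMSO 21 to 192 CPM.

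The count table also lists GFP, which the labels do not mention, and injected embryos fell into those with much GFP and those with little. As a description with no test, embryos were divided at 100 CPM of GFP, leaving out the 16 and the low libraries. In experiment 1 the summed level of the family had a median of 117 CPM in the 17 embryos at or above 100 CPM of GFP (quartiles 77.9 and 181) and 343 CPM in the 9 below it (quartiles 261 and 381). The sets overlapped, with 1 of the 17 above 343 CPM. Of the 9, library 2, with 8364 genes detected, was lowest at 50.4 CPM and library 21 highest at 989 CPM, and the other 7 held 248 to 384 CPM. In experiment 2 the summed levels were 28.6 to 425 CPM in the 25 embryos at or above it (median 88.8) and 335 to 771 CPM in the 5 below it. Pramef25 had the widest gap between medians in CPM, at 12.6 and 76.9 CPM in experiment 1 and 3.32 and 209 CPM in experiment 2. Pramel5 had medians of 0.639 and 24.8 CPM in experiment 1 and of 1.23 and 32.2 CPM in experiment 2. For Pramel6 in experiment 1 the sets were close, at 5.97 and 8.55 CPM. Embryos with little GFP held a median of 19 CPM of Nr5a2 in experiment 1 (5.4 to 54.8), those with much GFP 3473 CPM (2075 to 8607, n = 18 with the low library), and SR1848 embryos without injection 12.8 CPM. Higher Pramel and Pramef levels thus did not go with more Nr5a2 among embryos labelled as injected, and the cause was not tested.

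**Figure D5:**
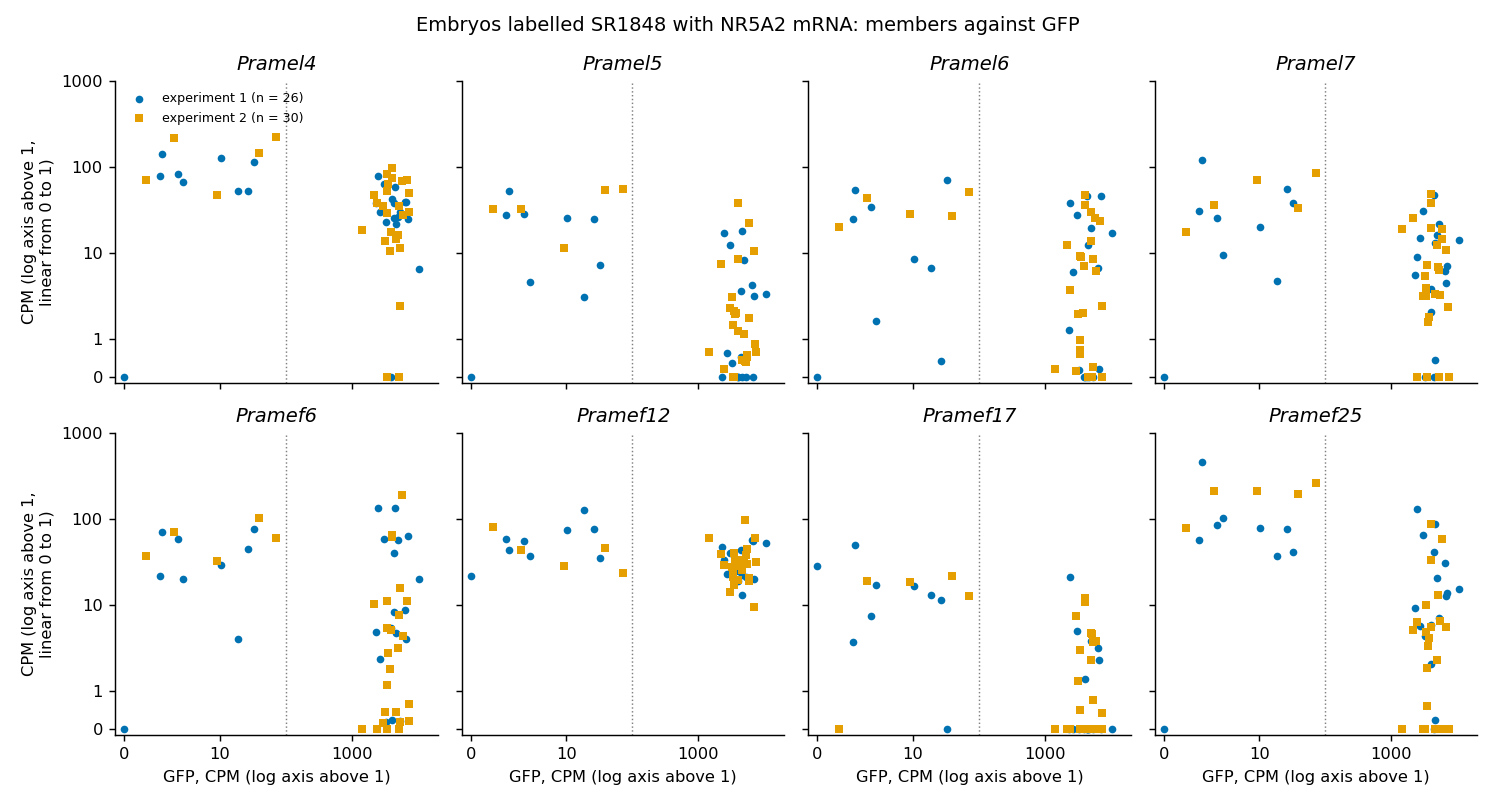
Levels of the 8 genes against GFP in embryos labelled SR1848 with NR5A2 mRNA, both in CPM on axes that are logarithmic above 1, without the 16 and the low libraries. Each point is an embryo and the dotted line is at 100 CPM of GFP. Pramef25 has medians of 12.6 CPM right of the line and 76.9 CPM left of it in experiment 1, and of 3.32 and 209 CPM in experiment 2.

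The authors' deposited table compares NR5A2 mRNA with SR1848 by transcript. It lists 25 transcripts of the 8 genes, of which 15 were higher and 1 lower at an adjusted p under 0.05, where 8560 of 61900 transcripts with an adjusted p were higher and 6243 lower. The lower one in the authors' deposited table was the Pramef12 transcript that holds 97.7% of the counts of that gene, with a log2 fold change of -0.862. The Pramel7 transcript with 85.2% of its counts had 2.16, and the only Pramef25 transcript 1.4, in the authors' deposited table. For 6 of the 16 the authors' deposited table gives a log2 fold change within 0.0001 of 0 beside its adjusted p, so it gives no size for them.

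Among the 58 libraries of experiment 1 that were not low, levels on the log2 CPM scale went together for Pramel6 and Pramel7 (Pearson r = 0.886), Pramel5 and Pramel6 (0.819), Pramel4 and Pramel7 (0.802) and Pramel4 and Pramel6 (0.792). Pramef12 ran against Pramel7 (-0.493). Pramef6 and Pramef25 had 0.604, and Pramef6 and Pramel4 -0.018. These embryos share 3 treatments, and 9275 genes differed between 2 of these, so the values describe a common pattern over groups. Outside the members, the genes most like Pramel7 were Amhr2 (0.939), Gm5612 (0.934) and Obox6 (0.921), and those most like Pramel6 were Vmn1r46 (0.936), Krit1 (0.934) and Psg16 (0.930). Amhr2, a receptor listed among the granulosa markers, had a median of 8.82 CPM with NR5A2 mRNA, 0 CPM with SR1848 and 75.9 CPM with DMSO, while the other 11 markers summed to medians of at most 0.00167% of counts in these groups. Wdr45b (0.914) and Snapc3 (0.911) were most like Pramel4, and Tubb4b (0.882), B020004J07Rik (0.876) and Gm12789 (0.869) most like Pramel5. For Pramef12 the highest values were those of Srpk1 (0.739), Dtx2 (0.700) and Gon4l (0.698), and for Pramef17 those of Cstf1 (0.834), Zcchc10 (0.803) and Hspbp1 (0.792). Pramef6 was most like Gm13078 (0.786), Gm4930 (0.758) and Gm9458 (0.755), and Pramef25 most like BC080695 (0.805), Dbr1 (0.770) and BC147527 (0.769). Gm13078 and BC080695 are themselves copies that share sequence with Pramef6 and Pramef25.

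Other PRAME family genes were taken from a list of 35 symbols, 33 of which matched. With SR1848 against DMSO in experiment 1, 17 of 31 tested were higher and 9 lower (median 1.48, beside 0.20 for all genes), where 36.3% and 31.7% of all genes were. Scaled to maternal transcripts this became 2 higher and 12 lower, with a median of -0.75 beside -2.06. In experiment 2 without the 16 libraries, 13 of 33 were higher and 7 lower, where 12.4% and 19.0% of all genes were. Gm16367 fell by 8.34 on the log2 scale (SE 0.98), while Pramef20 (3.53, SE 0.39) and C87414 (3.22, SE 0.41) rose. With NR5A2 mRNA against SR1848, 11 of 31 were higher and 0 lower by edgeR (median -0.08, beside 0.03, and 13.4% and 5.09% of all genes), with 1 lower by DESeq2 and 1 at an unadjusted p under 0.05. Without the low libraries 13 were higher and 5 lower, without the embryos with little GFP 5 of 29 and 0, and scaled to maternal transcripts 13 and 0. In experiment 2 without the 16 libraries 2 of 33 were higher and 1 lower, where 22.3% and 8.58% of all genes were. Among the 11 were Gm13119 (5.65, SE 0.78), BC080695 (4.33, SE 0.87) and Gm13043 (3.99, SE 0.94), which are copies of Pramef25 by shared sequence. With NR5A2 mRNA against DMSO, 22 of 31 were higher and 6 lower, where 37.2% and 29.7% of all genes were, and scaled to maternal transcripts 7 and 8. They were led by Gm13083 (3.41, SE 0.44), Pramef20 (2.77, SE 0.36) and Gm16367 (-4.80, SE 0.64).

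The next list holds genes of the CUL2 ligase, to which human PRAME belongs. Of 17 tested genes 11 were lower and 2 higher with SR1848 against DMSO (median -1.81), where 31.7% and 36.3% of all genes were. With maternal scaling 15 and 0 were, and 9027 of all genes were lower. In experiment 2 without the 16 libraries 10 of 18 were lower and 1 higher, where 19.0% and 12.4% of all genes were. Vhl, another substrate receptor of this ligase, fell by 4.22 (SE 0.56), the adaptor elongin C gene Eloc by 2.93 (SE 0.42) and the scaffold Cul2 by 1.85 (SE 0.46, adjusted p = 3.28e-04 by edgeR), while the receptor gene Klhdc3 rose (2.89, SE 0.36). With NR5A2 mRNA against SR1848 2 of 17 were higher and 0 lower by edgeR, where 13.4% and 5.09% of all genes were, with 1 lower by DESeq2 and 1 at an unadjusted p under 0.05. Without the low libraries 6 were higher and 3 lower, without the embryos with little GFP 1 and 0, and scaled to maternal transcripts 9 and 0. In experiment 2 without the 16 libraries 2 of 18 were higher and 4 lower (median -0.33), where 22.3% and 8.58% of all genes were. The 2 called in experiment 1 were Vhl (2.10, SE 0.49) and the elongin B gene Elob (1.38, SE 0.42). Of these, Elob was not called without the embryos with little GFP (1.05, adjusted p = 0.103). Nedd8, whose product activates cullins, had -0.93 (adjusted p = 0.0709), and Eloc (0.46) and Cul2 (0.03) did not pass. Against DMSO, 12 of 17 were lower and 2 higher with NR5A2 mRNA, where 29.7% and 37.2% of all genes were. Among them Lrr1 (-2.86, SE 0.31), Eloc (-2.47, SE 0.35) and Cul2 (-1.82, SE 0.39) were lower and Klhdc3 (2.69, SE 0.34) was higher.

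Of 14 tested genes of UHRF1 and DNA methylation, 3 were higher and 4 lower with SR1848 against DMSO (median 0.30), where 36.3% and 31.7% of all genes were. Without the low libraries 6 and 6 were, and scaled to maternal transcripts 0 and 12. Tet1, an enzyme that oxidizes methylcytosine, fell by 4.02 (SE 0.54), Trim28, a corepressor that protects imprints, by 2.90 (SE 0.60), and Dnmt3l, a cofactor of de novo methylation, rose (3.04, SE 0.45). Uhrf1 itself had medians of 138 CPM with SR1848 (8.14 to 292) and 45.4 CPM with DMSO (0 to 1516) and a change of 0.57 (SE 0.46, adjusted p = 0.272 by edgeR). It was called higher without the low libraries (1.67, SE 0.29, adjusted p = 9.08e-07) and lower when scaled to maternal transcripts (-1.67, SE 0.45, adjusted p = 7.45e-04). With NR5A2 mRNA against SR1848, Uhrf1 was lower (-1.19, SE 0.42, adjusted p = 0.0362 by edgeR), with a median of 62 CPM (0 to 189) against 138 CPM. In that comparison 2 of 14 were higher and 2 lower, where 13.4% and 5.09% of all genes were. Tet1 (3.42, SE 0.51) and Uhrf2 (1.98, SE 0.67, and 0.75 without the embryos with little GFP, adjusted p = 0.538) were higher. Tet3 (-1.66, SE 0.44) was lower beside Uhrf1. Dnmt1 did not pass with SR1848 against DMSO (-0.49, adjusted p = 0.19) or with NR5A2 mRNA against SR1848 (-0.29, adjusted p = 0.594). With maternal scaling 4 were higher and 1 lower. In experiment 2 without the 16 libraries 1 of 15 was higher and 5 lower, where 22.3% and 8.58% of all genes were. Against DMSO, 3 of 14 were higher and 4 lower with NR5A2 mRNA (1 and 13 scaled to maternal transcripts), where 37.2% and 29.7% of all genes were. Dnmt3l (2.80, SE 0.43) was among the higher. Among the lower were Dppa3, which keeps UHRF1 off maternal chromatin (-1.55, SE 0.40), Trim28 (-1.47, SE 0.49) and Dnmt1 (-0.78, SE 0.30, adjusted p = 0.0183 by edgeR).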

How the data were processed

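Single 2-cell embryos were profiled by SmartSeq2 in 137 libraries. The authors deposited estimated counts per transcript, and per the submitters' processing notes Trim Galore 0.6.2 and kallisto 0.46.1 were used, with the build mm10 (hg19 is also named, with no role). The authors also deposited a table of log2 fold changes with p-values per transcript and a mean normalized signal, which is not used. Here 119358 entries were summed to 36176 genes by GENCODE M21 (1691 entries with 0.557% of counts had no gene, and 5 special entries held 0.158%) and rounded, since 26.3% were not whole. Each experiment was tested with edgeR 4.0.16 (R 4.3.3, limma 3.58.1, with filterByExpr, TMM, quasi-likelihood, Benjamini-Hochberg, threshold 0.05) over all genes. The procedure was also run on simulated counts with the same dispersion for every gene, which does not show how it behaves on these data. Columns of the SR1848 groups carry prefixes that the labels do not explain and were matched by their sets of sample numbers. CPM uses library totals; TPM adds transcript length. DESeq2 1.42.0, other scalings, filters and sample sets were alternatives. The members, gene lists and settings were chosen with earlier results of these data known. All members are named, with the 3 genes of smallest p per other list and comparison, Uhrf1, Dnmt1, Cul2 and Eloc, and the 3 genes most like each member (log2 CPM, prior count 1), of which 1 is not reported here. Totals bound precision, and counts without molecular identifiers are not independent molecules. Tables used pandas 2.3.3 and numpy 2.4.6, and figures matplotlib 3.10.9.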

Additional observations from a re-analysis of the deposited data

Results flagged for a closer look

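In DMSO embryos of experiment 2, Pramel5 of library 10 stood apart at 89.7 CPM, with the next of the 10 libraries at 22.5 CPM. In the same group Pramef6 of library 2 stood apart at 94.0 CPM, with the next at 30.2 CPM. Library 2 is one of the 16 libraries that go against their labels, and library 10 is not. For each of the 8 genes tested, the cutoff is 1 that chance passes in about 1 of 20 groups of 10 like values. This group mixes 8 libraries that go against their labels with 2 that do not, so that rate does not apply here.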

How the results depend on the processing

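Over the alternatives, 428 of 527 member values kept their direction and side of the threshold, 41 gained a call, 30 lost one and 28 changed sign; the cause was not tested. Counts of members that moved are as follows. For SR1848 against DMSO in experiment 1, 0 were higher under maternal scaling, with or without the low libraries, and Pramef6 was then at -1.08 and -1.21 and Pramef12 at -0.78 and -0.88; Pramef6 was at -0.12 with both experiments as labelled. For NR5A2 mRNA against SR1848 in experiment 1, 0 were higher with the replicate block, 2 in the same libraries with no replicate term, and 1 was lower without the low libraries. Pramef12 was there at -0.40 with relative log expression scaling and with DESeq2, -0.29 under maternal scaling without the low libraries, -0.25 with no filter, -0.11 without the embryos with little GFP, -0.90 without the low libraries, -0.84 with the replicate block, -0.82 in the same libraries without it, -0.43 with both experiments as labelled and -0.38 without the 16. For NR5A2 mRNA against DMSO 1 was higher under maternal scaling, both ways, and Pramef12 was at -1.17 without the low libraries.

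In experiment 2, SR1848 against DMSO had 1 higher without the low libraries and with DESeq2, 8 lower under maternal scaling, both ways, and 2 lower with the replicate block. Pramef6 was at 0.81 without the 16 and 0.82 without these and the low libraries, Pramef25 at 0.02 and 0.03, and Pramef12 at -0.81 under maternal scaling, both ways. NR5A2 mRNA against SR1848 had 8 higher and 0 lower under maternal scaling, both ways, and 0 lower without the 16, with or without the low libraries. Pramef12 was at 0.63 and 0.59 under maternal scaling, and Pramef25 at -0.17 with the replicate block. Without the 16 and the embryos with little GFP, Pramel5 was at -0.30 and Pramef25 at -0.97. The difference between experiments of Pramef12 was 0.55 without the low libraries. Beside the members, Uhrf1 with SR1848 against DMSO was at -1.67 and -0.69 under maternal scaling, and with NR5A2 mRNA against DMSO at 0.46 without the low libraries and 0.61 with the replicate block. With NR5A2 mRNA against SR1848, Cul2 was at -0.04 with library totals, -0.002 with no filter, -0.37 without the embryos with little GFP and -0.21 with both experiments without the 16, and Dnmt1 at 0.23 and 0.43 under maternal scaling.

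Among all genes, higher and lower calls for SR1848 against DMSO in experiment 1 were 4950 and 4325, against 7468 and 6773 with no filter and 567 and 10071 under maternal scaling without the low libraries. For NR5A2 mRNA against SR1848 they were 1826 and 694, against 3199 and 1213 without the low libraries, 1102 and 567 without the embryos with little GFP, 4522 and 1861 with no filter, 264 and 94 with the replicate block, 722 and 518 in the same libraries without it, 6529 and 145 under maternal scaling without the low libraries, and 4295 and 1792 or 3268 and 1851 with both experiments, as labelled or without the 16. For NR5A2 mRNA against DMSO they were 5068 and 4048, against 8428 and 5711 with no filter. In experiment 2, SR1848 against DMSO gave 689 and 3026, against 48 and 11342 under maternal scaling, 924 and 5096 with no filter, 1109 and 3511 without the low libraries, 585 and 763 with the replicate block, 1215 and 3550 with DESeq2, 2316 and 3561 without the 16 and 3488 and 3997 without these and the low ones. NR5A2 mRNA against SR1848 gave 4464 and 1727, against 12969 and 42 under maternal scaling, 8694 and 1993 with no filter and 2236 and 2403 with the replicate block.

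Replicate numbers did not pair the embryos: of 17, 17, 19, 10 and 24 same-numbered pairs in the 5 comparisons, 0, 4, 1, 2 and 5 correlated above 0.1, and at most 1 embryo per comparison correlated best with its own number. Pramel6, Pramel7 and Pramef17 were not tested with that block for NR5A2 mRNA against SR1848 in experiment 1, where the filter removed them. The settings that combine maternal scaling with the low libraries left out, the same libraries without a replicate term, the sums with copies, and those without the 16 and the low libraries or without the embryos with little GFP were chosen after seeing the data.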
